A study of Rattus norvegicus with 18 samples.

Results

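Tcf7l2, Lef1, Prkcd, Ramp3, Slc17a6 and Rora are 6 genes used as markers of the thalamus, and their levels are described here in RNA-Seq libraries of the rat dorsal hippocampus. They were chosen by symbol as genes known for thalamic expression, and the choice also referred to their co-variation in these data. They are 6 of the 38445 annotated genes in the count files. All 6 were among the 17853 genes above 0.5 CPM, the count scaled to the size of its library, in at least 1 rat, the genes that were tested. The study asked which hippocampal genes change with long-term alcohol drinking and with its withdrawal. Adult male Sprague-Dawley rats received the Lieber-DeCarli liquid diet, a nutritionally complete liquid food given as the sole source of calories, and there were 6 rats in each of 3 groups. Control rats had the diet without ethanol, ethanol rats were brought up to 9% (v/v) ethanol in steps, kept at 9% (15 to 16 days at that level in the 2 ethanol-fed groups) and killed without withdrawal, and withdrawal rats were moved from the ethanol diet to the control diet for 24 h while the ethanol rats stayed on ethanol. Each library came from the dissected tissue of 1 rat, with no sorting of cells.

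The thalamus lies directly beneath the dorsal hippocampus and relays sensory, motor and limbic signals to the cortex. TCF7L2 and LEF1 are transcription factors that bind DNA with beta-catenin in the canonical Wnt pathway, and in the adult brain TCF7L2 is known above all for its strong expression in thalamic and habenular neurons. Thalamic relay neurons load glutamate into vesicles with VGLUT2, the product of Slc17a6, whereas hippocampal principal neurons use mainly VGLUT1, the product of Slc17a7. None of the 6 genes is restricted to the thalamus, since Prkcd, Rora and Slc17a6 are also transcribed in other brain regions.

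On the Rnor_6.0 assembly, the build of the count files, Tcf7l2 spans chr1:276686911-276730517, Slc17a6 spans chr1:106980463-107038717 and Lef1 spans chr2:236232115-236345061. Rora lies at chr8:75515886-75616477, Ramp3 at chr14:86922223-86939722 and Prkcd at chr16:6655131-6675746. The values below are read pairs over the annotated exons of each gene. RefSeq promoters of GRCr8, each 300 bases long and reaching from 250 bases before the transcription start to 50 after it, were matched for all 6 genes. These promoters were searched on both strands for CTTTGA, the core recognised by TCF/LEF proteins, and for AGGTCA, the core of sites for ROR receptors such as RORA, because 3 of the 6 genes encode such factors. CTTTGA was present in 16.1% of all 33469 rat promoters and AGGTCA in 16.2%. Of the 6 genes, Slc17a6 held CTTTGA and Prkcd held AGGTCA, and neither run of letters was present in the other 4 windows. These 2 promoters are shown because each holds 1 match, with the match in capitals. That of Slc17a6 (chr1:110348197-110348496 of GRCr8, plus strand) has CTTTGA at bases -25 to -20 from the start. That of Prkcd (chr16:5805790-5806089 of GRCr8, minus strand) has the reverse complement of AGGTCA at bases -219 to -214.
Slc17a6 promoter: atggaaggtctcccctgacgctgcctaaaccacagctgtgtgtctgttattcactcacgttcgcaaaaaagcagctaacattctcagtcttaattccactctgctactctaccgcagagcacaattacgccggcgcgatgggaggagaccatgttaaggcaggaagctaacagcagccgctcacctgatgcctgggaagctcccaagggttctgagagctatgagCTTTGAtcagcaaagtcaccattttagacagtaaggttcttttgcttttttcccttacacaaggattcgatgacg
Prkcd promoter: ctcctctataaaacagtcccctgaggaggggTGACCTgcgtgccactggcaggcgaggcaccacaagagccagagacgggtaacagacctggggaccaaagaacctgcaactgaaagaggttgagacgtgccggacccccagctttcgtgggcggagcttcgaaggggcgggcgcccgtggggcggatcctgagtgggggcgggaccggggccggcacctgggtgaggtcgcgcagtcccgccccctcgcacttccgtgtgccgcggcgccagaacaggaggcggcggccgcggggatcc
The Slc17a6 window had 49.0% G and C, below the median of 51.7% over all promoters, and the windows of the other 5 genes lay above it, at 61.7% for Ramp3 to 74.7% for Rora. A match of letters is a description of the window and no binding was measured.

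The libraries held 30873228 to 42679748 counted read pairs, and no pair of libraries within a group agreed within counting noise. The library of withdrawal rat 5 stood apart from the other 17. It had 591 counts of Xist, the RNA of the inactive X chromosome, against 0 to 7 in the other libraries, although all rats were labelled male and its Y-linked genes were at the level of the others (Ddx3y, 142 CPM against 119 to 154). In 28 genes this library was more than 4-fold above all the others, and the most in another library was 11 genes. These included En1, a midbrain factor (207 counts against at most 11), Gabra6, of cerebellar granule cells (207 against at most 20), and Cga, a pituitary hormone subunit (707 against at most 45), all 3 chosen after their values were seen. The main results are given with and without this library. According to the file headers, the 6 control libraries carried the same first index sequence, the 6 ethanol libraries and withdrawal rats 1 and 2 carried another, and withdrawal rats 3 to 6 carried yet another. A difference between control rats and either other group therefore cannot be told apart from a difference between these index sets.

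The transcription factors came first. Tcf7l2 had 31.3 CPM at the lowest, 51.5 at the median and 118 at the highest of the 6 control rats. In ethanol rats its lowest, median and highest levels were 27.9, 54.0 and 195 CPM, and in withdrawal rats 26.1, 58.3 and 141 CPM. Control rat 6, ethanol rats 1 and 4 and withdrawal rat 5 were the 4 highest of the 18, every other rat was at 79.3 CPM or below, and the groups overlapped.

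Lef1, its close relative, had 20.1, 24.4 and 41.7 CPM (lowest, median and highest) in control rats, 16.3, 26.97 and 59.3 in ethanol rats and 12.5, 25.8 and 34.4 in withdrawal rats. The highest levels were those of ethanol rat 1, control rat 6 and ethanol rat 4, followed by withdrawal rats 5 and 1, and the groups overlapped. Rora encodes an orphan nuclear receptor that is needed for the development of cerebellar Purkinje cells and is present in thalamic neurons. Its levels were 39.4, 46.2 and 82.2 CPM in control rats, 31.8, 52.5 and 127 in ethanol rats and 38.4, 52.5 and 77.7 in withdrawal rats. Ethanol rats 1 and 4 and control rat 6 were again the highest, withdrawal rat 1 was next, and withdrawal rat 5 ranked 6 of 18 at 55.8 CPM.

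Prkcd encodes protein kinase C delta, a kinase activated by diacylglycerol and not by calcium. It varied most of the 6 genes, with 45.7, 92.3 and 208 CPM in control rats, 53.6, 105.5 and 566 in ethanol rats and 36.4, 80.2 and 167 in withdrawal rats. Ethanol rat 1 at 566 CPM, ethanol rat 4 at 289 CPM and control rat 6 at 208 CPM were highest, and the ratio of the highest to the lowest rat was 15.6. The lowest of all 18 rats was withdrawal rat 5, which was second highest in Tcf7l2.

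Ramp3 encodes an accessory protein that pairs with the calcitonin receptor and its relative CALCRL and sets which peptide they bind. It was the least abundant of the 6 genes in CPM, with 8.96, 15.5 and 30.5 in control rats, 9.07, 17.4 and 60.4 in ethanol rats and 9.97, 12.3 and 16.6 in withdrawal rats. Ethanol rat 1, ethanol rat 4 and control rat 6 stood above the other 15 rats, none of which passed 19.7 CPM. The withdrawal rats varied least, with an SD of 2.80 CPM against 7.17 in control and 18.98 in ethanol rats.

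Slc17a6 had 85.9, 105.7 and 229 CPM in control rats, 50.03, 127 and 362 in ethanol rats and 57.5, 103 and 300 in withdrawal rats. Ethanol rat 1 was highest, withdrawal rat 5 second at 300 CPM, control rat 6 next at 229 CPM and ethanol rat 4 after it at 214 CPM. Ethanol rat 5 at 50.03 CPM and withdrawal rat 4 at 57.5 CPM were lowest, and both were also among the 3 lowest in Tcf7l2.

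**Figure D1:**
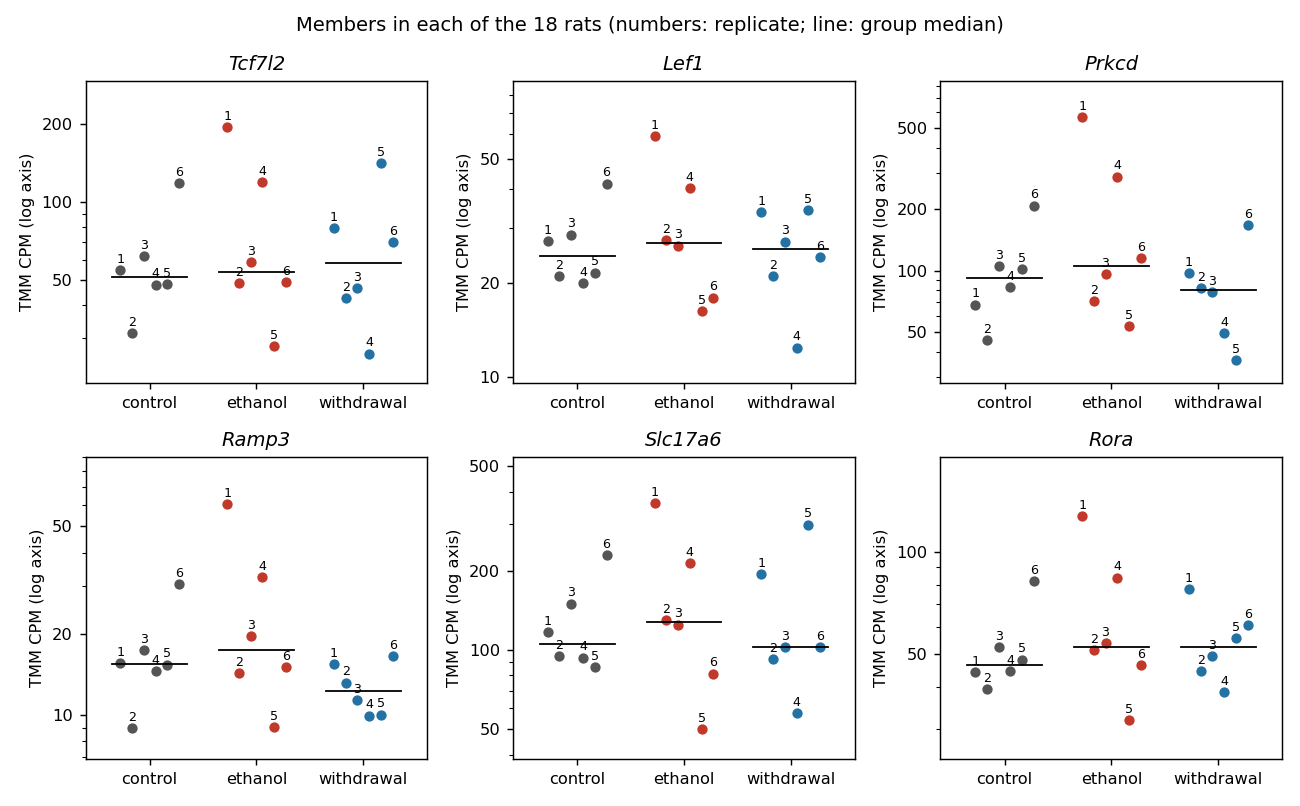
Normalised level of each gene in each rat (y axis, TMM-normalised CPM on a log axis; x axis, treatment group; numbers, replicate; line, group median, n = 6). In all 6 panels control rat 6 and ethanol rats 1 and 4 lie above their group medians, while withdrawal rat 5 lies near the top for Tcf7l2 (141 CPM) and Slc17a6 (300 CPM) and at the bottom for Prkcd (36.4 CPM).

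Relative to the median of all 18 rats, ethanol rat 1 was 6.32-fold in Prkcd, 3.96-fold in Ramp3, 3.76-fold in Tcf7l2, 3.29-fold in Slc17a6, 2.54-fold in Rora and 2.21-fold in Lef1. Control rat 6 was 1.56-fold (Lef1) to 2.32-fold (Prkcd) and ethanol rat 4 was 1.502-fold (Lef1) to 3.22-fold (Prkcd). In each of these 3 rats Prkcd stood furthest above the median and Lef1 least. After removal of the group means, the SD between rats on the log2 scale was 0.97 for Prkcd, 0.84 for Tcf7l2, 0.82 for Slc17a6, 0.67 for Ramp3, 0.56 for Lef1 and 0.50 for Rora, against a median of 0.18 over all tested genes. Among the 10516 genes above 10 CPM on average, these SDs lay at the 97.6 (Rora) to 99.7 (Prkcd) percentile.

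Levels can be compared between genes only per length of exon. Prkcd averaged 47.5 CPM per kb ± 46.6 (SD, n = 18), Slc17a6 27.7 ± 16.4, Tcf7l2 22.5 ± 14.3, Ramp3 15.0 ± 10.05, Rora 4.96 ± 1.98 and Lef1 3.55 ± 1.41. Prkcd was above Slc17a6 in 15 of 18 rats and Slc17a6 above Tcf7l2 in 16 of 18, so these neighbours did not keep their order in every rat. The other neighbours did so in all 18 rats, although Tcf7l2 and Ramp3 differed on average by less than the SD of either.

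The proportions between the 6 genes were compared within each rat. In withdrawal rat 5 the ratio of Prkcd to Slc17a6 was 0.122, against 0.484 to 1.63 in the other 17 rats, whose median was 7.31-fold higher. Its ratio of Tcf7l2 to Prkcd was 3.88 against 0.344 to 0.813, and that of Ramp3 to Slc17a6 was 0.0336 against 0.0799 to 0.186. The ratio of Tcf7l2 to Slc17a6 was not unusual, at 0.472 in withdrawal rat 5 and a median of 0.471 in the others. In all, 13 of the 15 ratios between the 6 genes lay outside the range of the other rats in withdrawal rat 5, 5 in ethanol rat 1, 4 in withdrawal rat 4, 3 in withdrawal rat 6 and 0 to 2 in each other rat. Ethanol rat 4 and control rat 6, which were high in all 6 genes, had no ratio outside the range of the rest.

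**Figure D2:**
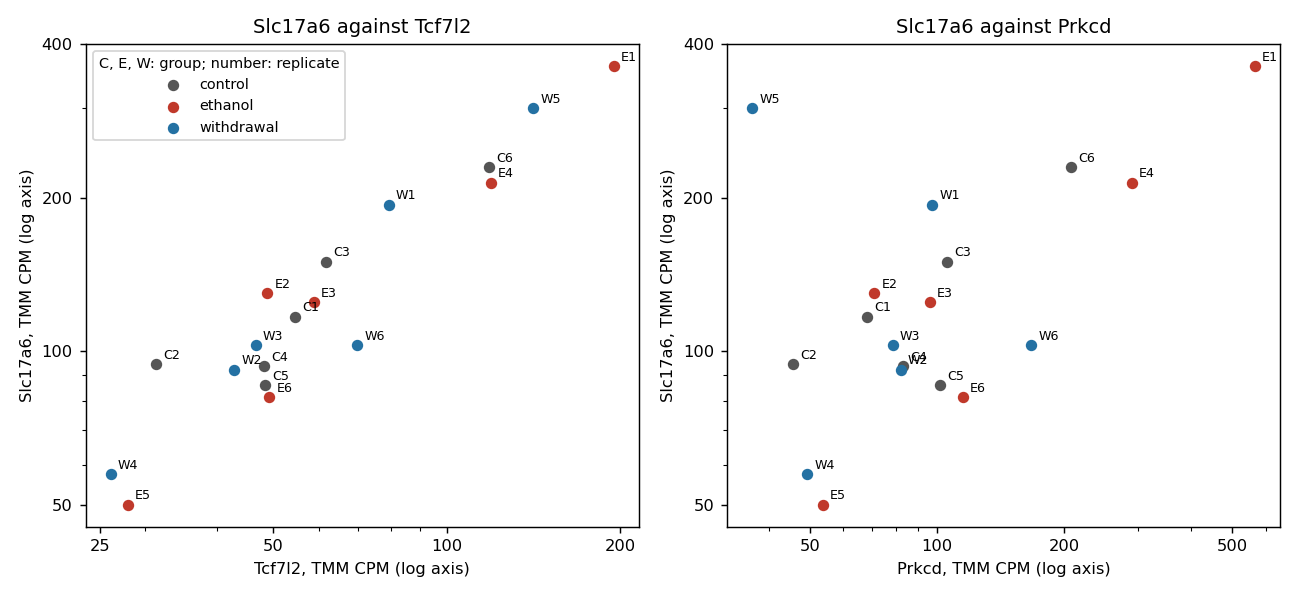
Slc17a6 (y axis) against Tcf7l2 (left) and Prkcd (right), each in TMM-normalised CPM on log axes, with 1 point per rat (C control, E ethanol, W withdrawal; number, replicate). All 18 rats, withdrawal rat 5 included, lie along a common line in the left panel, whereas in the right panel W5 sits alone at 36.4 CPM of Prkcd and 300 CPM of Slc17a6.

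Across the 18 rats the 6 genes went up and down together. The Pearson correlation of log2 CPM, computed for all 15 pairs, had a median of 0.87 and ran from 0.54 for Prkcd and Slc17a6 to 0.95 for Prkcd and Ramp3. Spearman's rho had a median of 0.76 and ran from 0.36 (Prkcd and Slc17a6) to 0.97 (Lef1 and Slc17a6). These are descriptions over rats of 3 groups that share a library protocol, and no test is given. Subtracting the group means left the median r at 0.88. Within groups of 6 rats the median r was 0.92 in control, 0.97 in ethanol and 0.67 in withdrawal rats, and in the last group Prkcd and Slc17a6 had an r of -0.24. Leaving out withdrawal rat 5 brought the median to 0.93 and the lowest pair, still Prkcd and Slc17a6, to 0.81. Ethanol rats 1 and 4 were farthest from the median, and without them the median r was 0.73 and that of Prkcd and Slc17a6 was 0.18, so part of the size of the relation rests on these 2 rats. In the 8 rats with the same first index sequence (ethanol rats 1 to 6 and withdrawal rats 1 and 2) the median r was 0.96. For comparison, the median r of each of the 6 genes with all tested genes was between 0.00 (Prkcd) and 0.03 (Tcf7l2). The choice of the 6 genes referred to their co-variation, so this contrast was built into the choice and tests nothing.

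**Figure D3:**
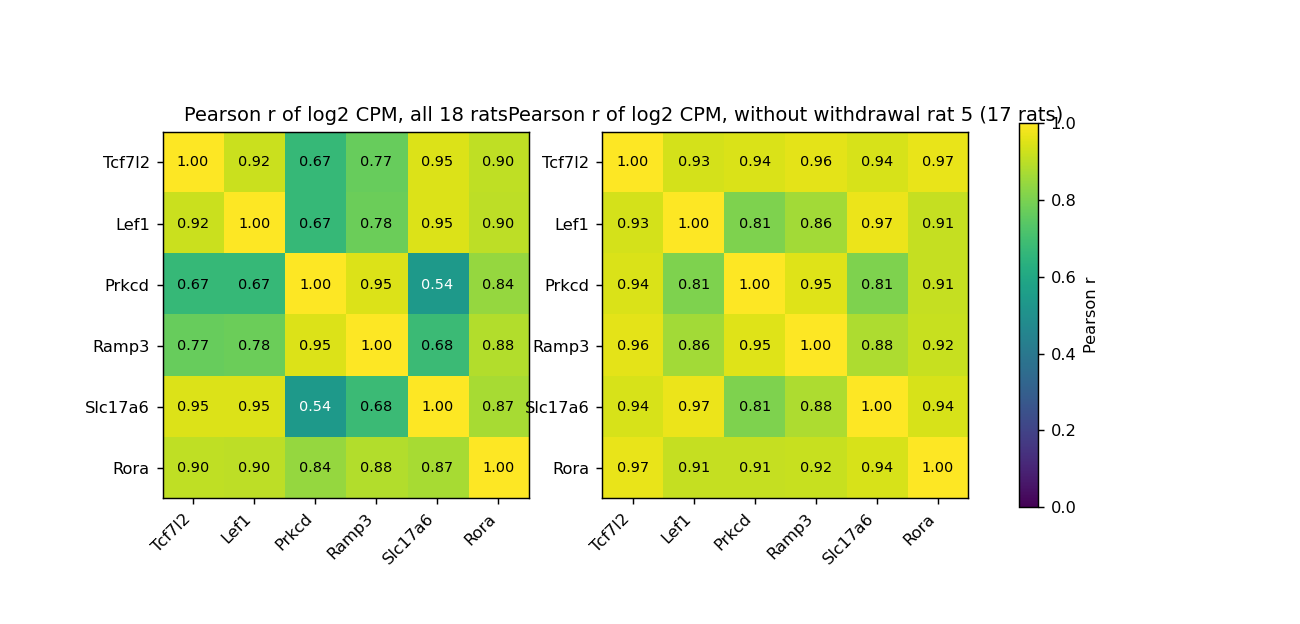
Pearson r of log2 CPM for each pair of the 6 genes over all 18 rats (left) and without withdrawal rat 5 (right), with the colour scale running from 0 to 1. The lowest cell, Prkcd with Slc17a6, is 0.54 on the left and 0.81 on the right.

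A score was made for each rat as the mean of the 6 genes' z-scores of log2 CPM over the 18 rats. It was highest in ethanol rat 1 (2.36), ethanol rat 4 (1.296) and control rat 6 (1.22), then in withdrawal rats 1 (0.51) and 5 (0.27), and lowest in withdrawal rat 4 (-1.32) and ethanol rat 5 (-1.33). Both ends of the order thus held an ethanol rat. Its Pearson r with the total count of the library was -0.02 and Spearman's rho was -0.05, so depth did not move with it.

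The comparison of ethanol with control rats asks what the diet changed before withdrawal. Mean levels were higher in ethanol rats for all 6 genes: 83.1 against 60.4 CPM for Tcf7l2, 31.3 against 26.7 for Lef1, 65.7 against 51.7 for Rora, 198 against 102 for Prkcd, 25.2 against 17.1 for Ramp3 and 160 against 128 for Slc17a6. These differences were smaller than the SD among ethanol rats, and the groups overlapped for all 6 genes. With 6 against 6 rats, exact permutation of the group labels (two-sided, on mean log2 CPM) gave a p of 0.353 (Prkcd) to 0.801 (Slc17a6). Of all tested genes, 1.32% had groups that did not overlap in this comparison. Limma-voom without surrogate variables gave log2 fold changes of 0.12 (Slc17a6) to 0.59 (Prkcd), with SEs of 0.27 to 0.51, and q of 0.688 or above (Benjamini-Hochberg over all genes). It called 0 of the 6 genes, beside a background of 0.28% of all genes called, and 0 of them at an unadjusted p under 0.05, beside 11.3% of all genes.

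The study's model adds surrogate variables, which are estimated from the data and stand for variation that the groups do not explain. With 3 of them the log2 fold changes of ethanol against control were negative for all 6 genes: -0.36 ± 0.13 (SE) for Tcf7l2, -0.34 ± 0.08 for Slc17a6, -0.25 ± 0.24 for Prkcd, -0.24 ± 0.18 for Ramp3, -0.22 ± 0.10 for Lef1 and -0.13 ± 0.13 for Rora. No gene passed q = 0.1 in limma-voom, and Slc17a6 missed it narrowly, at a q of 0.101. At an unadjusted p under 0.05, limma-voom counted 3 of the 6, beside 12.5% of all genes. EdgeR's quasi-likelihood test and DESeq2, both with the same surrogate variables, each called 1 of the 6, Slc17a6, at a q of 0.0944 and 0.00942. The share of all genes called lower was 0.168% with edgeR and 1.0% with DESeq2. With limma-voom it was 0.157%, and 0.336% were called higher. The median log2 fold change of the 6 genes was -0.25 with surrogate variables and 0.26 without, where that of all genes was 0.00 in both fits. Without withdrawal rat 5, the value for Slc17a6 was -0.33 ± 0.08 and its q was 0.0751, beside 1.26% of all genes called in that fit.

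For withdrawal against control, mean levels were 67.7 against 60.4 CPM for Tcf7l2, 141 against 128 for Slc17a6 and 54.4 against 51.7 for Rora, and lower in withdrawal rats for Lef1 (25.6 against 26.7), Prkcd (85.1 against 102) and Ramp3 (12.8 against 17.1). The groups overlapped for all 6 genes, beside 1.06% of all genes whose groups did not. The exact permutation p, two-sided, was 0.227 for Ramp3 and 0.524 or above for the others. Limma-voom with 3 surrogate variables gave log2 fold changes of -0.34 ± 0.17 for Ramp3, -0.09 ± 0.10 for Lef1, -0.07 ± 0.07 for Slc17a6, -0.04 ± 0.23 for Prkcd, 0.07 ± 0.12 for Tcf7l2 and 0.10 ± 0.12 for Rora, with a q of 0.269 or above. It called 0 of the 6, beside 2.85% of all genes called higher and 2.55% lower, and 0 of the 6 at an unadjusted p under 0.05, beside 19.7% of all genes. EdgeR and DESeq2 with the same variables called 0 of the 6 as well, beside 5.77% and 9.1% of all genes. Limma-voom without surrogate variables called 0 of the 6, beside 0.23% of all genes, and 0 at an unadjusted p under 0.05, beside 12.1%. Leaving out withdrawal rat 5 lowered the withdrawal mean of Tcf7l2 to 53.0 CPM and of Slc17a6 to 110 CPM and raised that of Prkcd to 94.9 CPM. Fitted again by limma-voom, the values were -0.01 ± 0.11 for Tcf7l2 and 0.15 ± 0.14 for Prkcd, both with the opposite sign, at q of 0.971 and 0.601. Ramp3 was then at -0.16 ± 0.10 (q = 0.373), Slc17a6 at -0.11 ± 0.07 and Rora at 0.17 ± 0.08.

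For withdrawal against ethanol, all 6 means were lower in withdrawal rats, such as 141 against 160 CPM for Slc17a6 and 85.1 against 198 CPM for Prkcd. The exact permutation p was 0.117 for Ramp3, 0.203 for Prkcd and 0.552 or above for the others, and no gene's groups were apart, beside 1.22% of all genes. Limma-voom without surrogate variables gave log2 fold changes of -0.86 ± 0.51 for Prkcd, -0.73 ± 0.38 for Ramp3 and -0.24 to -0.11 for the other 4. It called 0 of the 6 beside 3.48% of all genes, with 0 at an unadjusted p under 0.05 beside 18.6%. EdgeR without them called 0 of the 6, beside 682 of 17853 genes, and counted 2 of the 6 at an unadjusted p under 0.05. In limma-voom with 3 surrogate variables 5 of the 6 values were positive, up to 0.43 ± 0.14 for Tcf7l2 (q = 0.131) and 0.27 ± 0.08 for Slc17a6 (q = 0.12), and that of Ramp3 was -0.10 ± 0.19, or 0.06 ± 0.11 without withdrawal rat 5. Limma-voom called 0 of the 6, beside 1.23% of all genes called higher and 1.49% lower, and counted 2 at an unadjusted p under 0.05, beside 16.7% of all genes. EdgeR called 0 of the 6, beside 1.32% of all genes called higher, and DESeq2 called Tcf7l2 and Slc17a6 higher, beside 3.16%. Restricted to rats with the same first index sequence (withdrawal rats 1 and 2 against the 6 ethanol rats), the differences of mean log2 CPM were -0.62 for Prkcd, -0.52 for Ramp3, -0.20 for Tcf7l2, -0.08 for Lef1, -0.01 for Rora and 0.03 for Slc17a6. Over all rats the same differences were -0.86, -0.71, -0.19, -0.22, -0.16 and -0.11. In bulk tissue, fewer cells that express a gene and less RNA per cell cannot be told apart in any of these values.

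**Figure D4:**
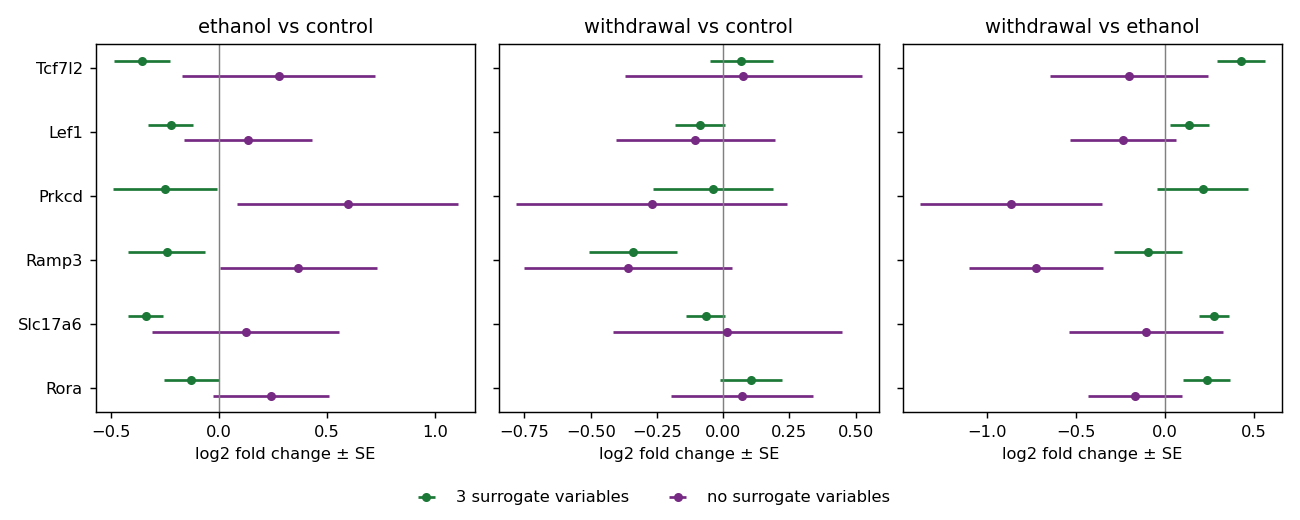
Log2 fold change (x axis) with its SE from limma-voom for each gene (y axis) in the 3 comparisons, with 3 surrogate variables (green) and without (purple). In ethanol against control all 6 green points lie below 0 and all 6 purple points above it; no point passed q = 0.1.

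The surrogate variables held most of the spread of these genes. They took up 97.6% of the within-group variance of Slc17a6, 93.4% of Tcf7l2, 91.0% of Lef1, 83.3% of Rora, 81.3% of Prkcd and 79.0% of Ramp3, against a median of 43.2% over all tested genes. The second variable moved with the score of the 6 genes, with a Pearson r of 0.95 over the 18 rats, and with each of them at 0.74 (Prkcd) to 0.93 (Tcf7l2). The first variable had an r of 0.54 with Prkcd and -0.35 with Slc17a6, the pair that parted in withdrawal rat 5. Because the 6 genes are among those from which the variables were estimated, the adjusted fold changes describe what remained after most of their own variation was removed.

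Other markers of the thalamus moved with the 6 genes. Of the 16 in the list, all were tested, 15 had an r above 0.5 with the score, and 14 had their highest level in ethanol rat 1. Ntng1, a membrane protein of thalamic axons, had 233 CPM in ethanol rat 1, 136 in ethanol rat 4, 133 in control rat 6 and 60.6 in withdrawal rat 5. Gbx2, a transcription factor of the developing thalamus, had 11.5, 4.25, 2.81 and 1.05 CPM in the same rats. The mean z-score of the list had an r of 0.96 with that of the 6 genes (rho 0.87, 0.97 with the group means subtracted). The most abundant genes of the list were Adarb1, an RNA-editing enzyme (310 CPM on average, r = 0.94), Ptpn3 (164 CPM, r = 0.52) and Plekhg1 (99.2 CPM, r = 0.69). Ptpn3 and Plekhg1 were lowest in withdrawal rat 5, at 52.4 and 43.6 CPM, and without that rat their r was 0.78 and 0.87. The summed level of the list was 706 to 1357 CPM in control rats, 696 to 2241 in ethanol rats and 671 to 1056 in withdrawal rats. In withdrawal rat 5 it was 760 CPM, below the median of each group, although Tcf7l2 and Slc17a6 were high in that library. Withdrawal against control gave 0 of the 16 higher and 2 lower, beside 2.85% of all genes called higher and 2.55% lower. The 2 were Zic4 (-0.52 ± 0.13, q = 0.0533) and Lhx9 (-0.26 ± 0.07, q = 0.0577), both developmental transcription factors. Both passed without withdrawal rat 5 too, at q of 0.0853 and 0.0226, and neither passed without surrogate variables, at q of 0.563 and 0.72. The list's median log2 fold change was -0.14, beside 0.00 for all genes. In the other comparisons 0 of the 16 passed. Without withdrawal rat 5, 1 of the 16 was lower in ethanol than in control rats, and in withdrawal against ethanol 1 was higher and 1 lower, the latter being Lhx9 (-0.26, q = 0.0831). Of all genes, 1.26% and 3.81% were called in those fits.

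The habenula, which borders the medial thalamus, also expresses Tcf7l2. Its 7 markers had an r of 0.73 with the score (0.80 without withdrawal rat 5), and 5 of the 7 had an r above 0.5. Chrna3, a nicotinic receptor subunit of the medial habenula, had 25.9 CPM in control rat 6, 25.3 in ethanol rat 1 and 26.4 in ethanol rat 4, but also 13.6 and 14.0 in control rats 1 and 3, 14.3 in ethanol rat 3 and 10.1 in withdrawal rat 1. It was at 2.54 CPM or below in 10 rats and at 8.92 CPM in ethanol rat 2. Gpr151, a receptor of habenular neurons, was at 0.0269 CPM in withdrawal rat 5 and 0.0279 CPM in withdrawal rat 4, whereas Pou4f1, a transcription factor of habenular and other sensory and midbrain neurons, had 15.3 CPM in withdrawal rat 5 and 0.838 CPM in withdrawal rat 4. The summed level ran from 85.3 to 239 CPM in control, from 89.6 to 250 in ethanol and from 72.5 to 132 in withdrawal rats. The most abundant markers were Nwd2 (82.3 CPM, r = 0.62), Gng8 (13.8 CPM, r = 0.37) and Tac3 (12.6 CPM, r = 0.45). Withdrawal against control gave 2 of the 7 lower, beside 2.55% of all genes called lower. The 2 were Chrna3 (-2.01 ± 0.55, q = 0.0645) and Gng8 (-0.55 ± 0.13, q = 0.0396). Without withdrawal rat 5 the q of Chrna3 was 0.117 and that of Gng8 was 0.0331, and neither passed without surrogate variables, at q of 0.795 and 0.139. The list's median log2 fold change in this comparison was -0.89 with surrogate variables and -0.55 without, beside 0.00 for all genes in both fits. In withdrawal against ethanol the list's median was -0.81 with them and -0.82 without, and in ethanol against control -0.09 and 0.64. With surrogate variables 0 of the 7 passed in these 2 comparisons. Without them 1 passed, Gng8 in withdrawal against ethanol (q = 0.0647), beside 3.48% of all genes called.

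Markers of hippocampal principal neurons did not follow the 6 genes as a list. The z-score of the 7 tested markers had an r of -0.08 with the score, -0.04 without withdrawal rat 5 and -0.22 with the group means subtracted. Each marker has the same weight in it, and 3 were at low levels: Spink8, Zbtb20 and Dsp averaged 0.31, 3.60 and 4.82 CPM. Their r with the score was -0.22, 0.22 and 0.27. Wfs1, of CA1 pyramidal neurons, had an r of -0.61 (-0.84 without withdrawal rat 5) and its lowest levels in withdrawal rat 5 (75.5 CPM) and ethanol rat 1 (124 CPM), against 182 CPM or more in the other rats. Prox1, of dentate granule cells, was at 52.9 CPM in withdrawal rat 5 and at 138 CPM in ethanol rat 1 (r = -0.09). Bok had an r of 0.41 and 75.3 CPM on average. The summed level was 185.6 CPM in withdrawal rat 5 and 349 to 629 CPM in all other rats. In withdrawal against control 1 of the 7 was lower, beside 2.55% of all genes called lower. This gene was Prox1 (-0.26 ± 0.08, q = 0.0968), and its q was 0.146 without withdrawal rat 5. Tdo2, Fibcd1 and Iyd were below the level at which genes were tested.

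**Figure D5:**
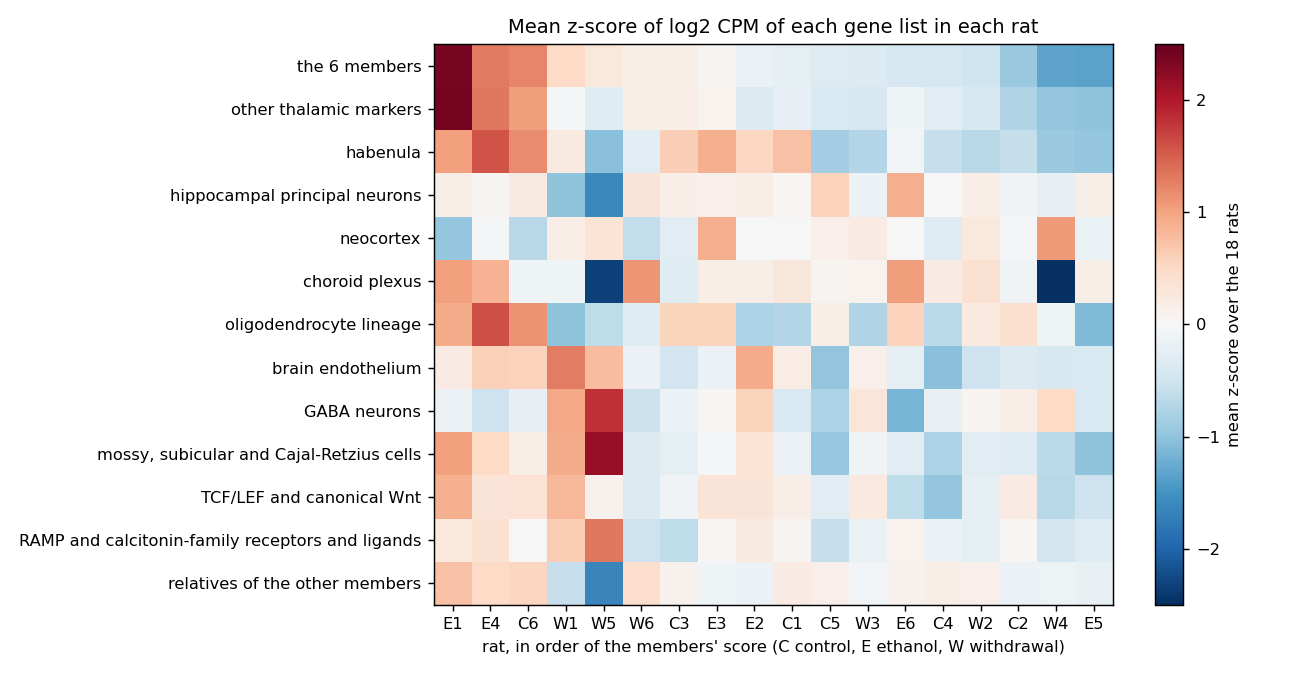
Mean z-score of log2 CPM (colour) of the 6 genes and of 12 gene lists (rows) in each of the 18 rats (columns, ordered by the score of the 6 genes). The row of other thalamic markers follows the top row with an r of 0.96, while in withdrawal rat 5 the choroid plexus and hippocampal rows are low.

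Neighbouring tissues were also read from their markers. The 7 tested choroid plexus genes had an r of 0.34 with the score, and 0.48 without withdrawal rat 5. Ttr, the thyroxine carrier that choroid plexus makes in bulk, had 4743 CPM in ethanol rat 1 and 3070 in ethanol rat 4, but 1325 in control rat 6, 21.8 in withdrawal rat 4 and 20.3 in withdrawal rat 5. Clic6 and Kl, the next most abundant, were likewise at 2.47 CPM or below in withdrawal rats 4 and 5. The summed level of the list was 1108 CPM or more in all other rats, up to 5469 in withdrawal rat 6, and none of the 7 genes was at 0 in any rat. Otx2 was below the level at which genes were tested. With all 18 rats none of the 7 passed in any comparison. Without withdrawal rat 5, 1 was higher in ethanol than in control rats, beside 1.26% of all genes called. The 6 neocortical markers had an r of -0.55 as a list. Fezf2 was at -0.83, Tbr1 at -0.77, Hs3st4 at -0.64, Tle4 at -0.16, Rspo1 at -0.08 and Cux2 at 0.82. None of the 6 passed with all 18 rats. The part of these other tissues in the levels of the 6 genes was not tested.

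Among the other cell types, the 10 oligodendrocyte genes had an r of 0.54 with the score. Mbp, of myelin, had 7113 to 8101 CPM in control rat 6 and ethanol rats 1 and 4, and 7341 CPM in ethanol rat 6, whose score was -0.42 (r = 0.57), and Mobp had an r of 0.37. In withdrawal against control 1 of the 10 was lower, Gpr17, a receptor of oligodendrocyte precursors (-0.44 ± 0.12, q = 0.0675). The 8 endothelial genes had an r of 0.50, and 3 were higher after withdrawal than in controls, Pecam1 (0.34 ± 0.07, q = 0.0257), Flt1 (0.28 ± 0.08, q = 0.0629) and Esam (0.18 ± 0.06, q = 0.0968). Slco1a4 (r = 0.61) and Cldn5 (r = 0.47) did not pass. Without withdrawal rat 5, Pecam1, Flt1 and Gpr17 passed and Esam did not (q = 0.114). The 6 GABA neuron genes had an r of -0.0036 as a list (-0.07 without withdrawal rat 5), and their single r differed. Sst was at -0.76, Gad1 at -0.19, Gad2 at -0.18, Slc32a1 at 0.07, Vip at 0.50 and Pvalb at 0.55. Withdrawal rat 5 had the highest level of 5 of these 6 genes, such as Gad1 (413 CPM, against 187 to 340 in the others) and Slc32a1 (111 CPM). Gad2 was higher in withdrawal than in ethanol rats (0.35 ± 0.08, q = 0.0578), and so it was without withdrawal rat 5 (q = 0.0675). Calb2, Drd2 and Fn1, the tested markers of mossy, subicular and Cajal-Retzius cells, had r of 0.83, 0.70 and -0.07, and none passed. Of all 94 listed genes tested, limma-voom with 3 surrogate variables called 11 in withdrawal against control, 4 of them higher and 7 lower, beside 2.85% of all genes called higher and 2.55% lower. It called 0 in ethanol against control, with 20 at an unadjusted p under 0.05 beside 12.5% of all genes, and 1, higher, in withdrawal against ethanol, beside 1.23% of all genes called higher. Without surrogate variables it called 0, 0 and 3, beside 0.23%, 0.28% and 3.48% of all genes. Without withdrawal rat 5 it called 12, 2 and 4, beside 5.86%, 1.26% and 3.81% of all genes called in those comparisons, in the order withdrawal against control, ethanol against control and withdrawal against ethanol. The additional calls included 1 neocortical gene and 2 of the 3 mossy, subicular and Cajal-Retzius genes, all higher after withdrawal than in control rats, and 1 choroid plexus gene higher in ethanol than in control rats. In the calcitonin family 1 gene was then lower in withdrawal rats than in control rats and 1 lower than in ethanol rats.

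Relatives of the 6 genes were read in the same way. In the Wnt list of 11 genes the r of the list with the score was 0.69, with 5 genes above 0.5. Nkd1, a feedback inhibitor of Wnt signaling, had an r of 0.84 and 48.6 to 57.4 CPM in control rat 6 and ethanol rats 1 and 4. Axin2, a widely used target gene of the pathway, had an r of 0.23. Ctnnb1, which encodes beta-catenin, had an r of 0.67, Apcdd1 one of -0.25, and Tcf7 and Tcf7l1, the other genes of the TCF/LEF family, 0.65 and 0.19. Notum, which encodes an enzyme that inactivates Wnt proteins, was lower in withdrawal than in control rats (-0.52 ± 0.15, q = 0.0797), and 0 of the 11 were higher. Of all genes, 2.55% were called lower and 2.85% higher in this comparison. In the list of 7 calcitonin-family genes, Ramp1 had an r of 0.63, Ramp2 of -0.41, Calcrl of 0.52 and Calcr, the calcitonin receptor, of 0.50, and the r of the whole list with the score was 0.40, where Ramp3 had an r of 0.77 with Tcf7l2. Adm, the gene of the peptide adrenomedullin, was higher after withdrawal than in controls (0.81 ± 0.24, q = 0.0829), at 1.98 CPM on average. The q of Notum was 0.087 and that of Adm 0.0987 without withdrawal rat 5. Neither passed without surrogate variables, at q of 0.24 and 0.217.

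The remaining relatives fell on both sides. The protein kinase C genes Prkch (r = 0.92) and Prkcq (r = 0.84) moved with the score, and Prkce, the most abundant of those listed at 237 CPM, moved against it (r = -0.67). Rorb, the sister gene of Rora, had an r of 0.72. Slc17a7, which encodes VGLUT1, had an r of -0.63 (-0.84 without withdrawal rat 5) and its lowest levels in withdrawal rat 5 (376 CPM) and ethanol rat 1 (534 CPM), the 2 rats highest in Slc17a6, while Slc17a8 had an r of -0.16. None of the 6 tested relatives passed in any comparison.

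Of the 17847 other tested genes, 66 had an r above 0.9 with the score and 9 an r below -0.9, where the median was 0.02. Hcn4, a slow pacemaker channel of thalamic relay neurons, was closest, with an r of 0.98 (rho 0.98) and 2.12 to 19.1 CPM. The next in order were Cpne9, Mlnr, Shox2, Amotl1, Ccdc136, Chrna4, Prkg2, Mybpc1 and Gpr153, with r of 0.96 to 0.94, and all 10 were highest in ethanol rat 1. Without withdrawal rat 5 the r of Hcn4 was 0.98, and without ethanol rats 1 and 4 it was 0.97. Chrna4, a nicotinic receptor subunit, ran from 10.8 to 77.6 CPM, and Mybpc1 from 2.24 to 36.3 CPM. Shox2 and Amotl1 are also in the list of other thalamic markers. At the other end, Bcl11a, a transcription factor of cortical and hippocampal neurons, had an r of -0.95, with 98.6 CPM in ethanol rat 5 and 44.8 CPM in ethanol rat 1. Syn1, which encodes a synaptic vesicle protein, had an r of -0.93, Fam117b one of -0.92, and Kcnh3 and Tmem181 one of -0.91, and all 5 were lowest in ethanol rat 1. None of these 15 genes passed q = 0.1 in any comparison with 3 surrogate variables. The genes were ordered by their likeness over the same 18 rats, so their r is a description.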

How the data were processed

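RNA of the dorsal hippocampus was sequenced in 18 rats. The authors aligned the reads with STAR to Rnor_6.0 and deposited, for each rat, whole-number counts of read pairs per gene from featureCounts, with strand used and multiply mapped reads left out. Counts of genes above 0.5 CPM in at least 1 rat were normalised by TMM (edgeR 4.0.16), and CPM here means TMM-normalised CPM. Log2 CPM used a prior count of 2. Following the study's methods, limma-voom (limma 3.58.1) was fitted to all 3 groups with surrogate variables (sva 3.50.0). Their number is not given in the sources used here, and 3 were used. A gene was called at a Benjamini-Hochberg q below 0.1 over 17853 genes, by steps tested on simulated data. Each of the 6 genes was also compared by exact permutation over 924 splits. DESeq2 1.42.0 and edgeR were alternatives.

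The 6 genes and the lists were chosen with earlier results of these data known, and the choice of the 6 referred to their co-variation. Beyond the 6 genes, the text names the 10 genes most and the 5 least correlated with their score, listed genes with q below 0.1, the 3 most abundant genes of each list, and family relatives, of which 1 gene is not reported here. The other genes named from the lists, such as Ntng1, Gbx2, Gpr151 and Axin2, were picked as examples after their values were seen. Replicate numbers were not treated as pairs in the main fit, and each library came from a different animal.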

Additional observations from a re-analysis of the deposited data

Results flagged for a closer look

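Each of the 6 genes was examined in each group of 6 rats for a rat far from the others, by Dixon's test of the gap to the nearest rat over the range of the group, on linear CPM. Of 18 such groups, 3 exceeded the 95% critical value of 0.625, where chance alone flags about 1 in 20 groups. All 3 were control rat 6, and the 6 genes are correlated (median r of 0.92 in control rats), so the 3 are not separate cases. Tcf7l2 was at 118 CPM there, against a median of 48.4 in the other 5 control rats, and the gap was 0.649 of the range. Prkcd was at 208 CPM against 83.1 (0.632 of the range) and Rora at 82.2 CPM against 44.4 (0.7 of the range). On log2 CPM, a scale added after seeing the data, the gaps were 0.489 of the range for Tcf7l2, 0.449 for Prkcd and 0.616 for Rora, all below the critical value. Ethanol rat 1 was not singled out in any gene, and ethanol rat 4 lay between it and the rest of its group.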

How the results depend on the processing

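The direction of most fold changes depended on the surrogate variables. The log2 fold changes of ethanol against control that turned positive are given in the order Tcf7l2, Lef1, Prkcd, Ramp3, Slc17a6 and Rora, and those of withdrawal against ethanol that turned negative in the same order without Ramp3. With limma-voom without surrogate variables they were 0.28, 0.13, 0.59, 0.37, 0.12 and 0.24, and -0.20, -0.24, -0.86, -0.11 and -0.17, and Slc17a6 in withdrawal against control was 0.0151. With edgeR without them they were 0.46, 0.23, 0.96, 0.56, 0.32 and 0.35, and -0.30, -0.29, -1.22, -0.18 and -0.28, and Slc17a6 in withdrawal against control was 0.14. With only the 2 groups compared and none they were 0.27, 0.13, 0.59, 0.36, 0.12 and 0.24, and -0.20, -0.23, -0.86, -0.10 and -0.17, and Slc17a6 in withdrawal against control was 0.00854. With a replicate block and none they were 0.27, 0.15, 0.60, 0.44, 0.12 and 0.25, and -0.20, -0.23, -0.86, -0.11 and -0.17, and Slc17a6 in withdrawal against control was 0.0137. With 1 surrogate variable they were 0.31, 0.16, 0.59, 0.38, 0.16 and 0.26, and -0.45, -0.42, -0.81, -0.42 and -0.27, and in withdrawal against control Tcf7l2 was -0.14 and Rora -0.0175. Prkcd in withdrawal against control was near 0 and turned to 0.0563 and 0.0178 with 2 and 4 surrogate variables, to 0.000964 with edgeR and to 0.0125 with DESeq2. Among rats with the same first index sequence, withdrawal against ethanol also turned for Tcf7l2 (-0.20), Lef1 (-0.0788), Prkcd (-0.62) and Rora (-0.0127). The cause was not tested. None of the turned values that had a test passed q = 0.1, and the same-index differences had none. With RLE size factors and without a filter on low counts, all 18 values kept their direction and their side of the threshold.

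Leaving out each rat in turn, 18 of 324 values turned. Ethanol against control ran from -0.45 to -0.30 for Tcf7l2, -0.26 to -0.15 for Lef1, -0.40 to -0.13 for Prkcd, -0.33 to -0.15 for Ramp3, -0.41 to -0.30 for Slc17a6 and -0.21 to -0.0753 for Rora. Withdrawal against control ran from -0.0808 to 0.18 for Tcf7l2, -0.18 to -0.00689 for Lef1, -0.20 to 0.15 for Prkcd, -0.47 to -0.16 for Ramp3, -0.17 to 0.028 for Slc17a6 and -0.0114 to 0.19 for Rora. Withdrawal against ethanol ran from 0.32 to 0.55 for Tcf7l2, 0.0521 to 0.24 for Lef1, -0.00808 to 0.37 for Prkcd, -0.26 to 0.0701 for Ramp3, 0.14 to 0.36 for Slc17a6 and 0.11 to 0.32 for Rora. Slc17a6 passed q = 0.1 in ethanol against control without control rat 1, ethanol rat 4, or withdrawal rat 1, 4 or 5 (-0.41 to -0.33), and in withdrawal against ethanol without control rat 1 or withdrawal rat 2 or 4 (0.29 to 0.36). Tcf7l2 did so in withdrawal against ethanol without withdrawal rat 2 (0.55) or 4 (0.50). With 4 surrogate variables, and with genes above 0.5 CPM in at least 6 rats, Slc17a6 passed in both comparisons. Of 17853 genes, 4 surrogate variables gave 221 calls in ethanol against control and 896 in withdrawal against ethanol. The main fit gave 88 and 486. The filter at 6 rats gave 121 and 511 of 16619. Leaving out control rat 1 gave 11 and 365 of 17827, and leaving out withdrawal rat 5 gave 224 of 17778 in ethanol against control. Slc17a6 thus passed in fits with more and with fewer calls than the main fit. Totals of the other fits without 1 rat are not listed singly. Over the fits that left out 1 rat, q ran from 0.0751 to 0.262 for Slc17a6 in ethanol against control, from 0.0448 to 0.394 in withdrawal against ethanol, and from 0.0452 to 0.46 for Tcf7l2 in the latter.

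Numbers of genes called depended on the model as well. The order is ethanol against control, withdrawal against control and withdrawal against ethanol, and the fit with 3 surrogate variables gave 88, 965 and 486. Without surrogate variables limma-voom gave 50, 41 and 621. 1 surrogate variable gave 258, 112 and 1492. 2 gave 71, 594 and 260. 4 gave 221, 1362 and 896. EdgeR without surrogate variables gave 62, 33 and 682. DESeq2 with 3 gave 473, 1624 and 1176. No filter on low counts gave 9, 486 and 166. Fitting only the 2 groups compared, also without surrogate variables, gave 55, 0 and 0. The score of the 6 genes in place of the surrogate variables gave 51, 251 and 730. Leaving out 1 rat gave 0 to 258, 23 to 1911 and 0 to 1800 calls. The median r of the 15 pairs was 0.73 without ethanol rats 1 and 4. The values without withdrawal rat 5, given beside the results, were chosen after seeing the data.

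The labels do not say what the replicate numbers stand for. Of 18 same-numbered pairs, 4 had a correlation of deviations over 0.1 (-0.325 to 0.383), and 5 of 18 rats correlated best with their own number. The study fed its rats in pairs, and these correlations cannot show whether the numbers follow that pairing. With the replicate number as a block, calls were 33, 941 and 1 with 3 surrogate variables and 0, 0 and 14 without. The block with 3 surrogate variables changed no call of the 6 genes. Depth limits these genes little, since the lowest count of any of them was 313 read pairs (Ramp3).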
